A study of Mus musculus with 9 samples.

Results

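The genes described here encode the transcription factors of AP-1 and 2 further immediate early factors. They are Fos, Fosb, Fosl1 and Fosl2 (the Fos family), Jun, Junb and Jund (the Jun family), Egr1, and Atf3. They were taken by symbol from a table of 54429 symbols with estimated counts for 9 mouse tumors. All 9 were listed under a single symbol, and all 9 were among the 15931 genes that passed the filter on low counts.

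AP-1 is a dimer of basic leucine zipper proteins. Fos proteins cannot form stable homodimers and bind DNA together with a Jun protein, whereas Jun proteins can also pair with one another or with an ATF protein. Many of these genes are immediate early genes: growth factors, cytokines and stress reach them through MAP kinases, serum response factor and CREB, their transcripts rise without new protein synthesis and then decay quickly, and Jund is a member that is usually expressed steadily.

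The study asked how combined treatments change gene expression in whole neuroblastoma tumors. NB9464, a mouse neuroblastoma cell line, was injected under the skin of wild-type (WT) C57BL/6 mice that were 4 to 6 weeks old per the methods and treatment began at a tumor volume of 250 mm3. The 3 groups of 3 tumors were vehicle, R788 + anti-PDL1 (R788, or fostamatinib, is turned in the body into an inhibitor of Syk, a kinase of immune receptors, and the dose was 50 mg/kg 5 times a week; the antibody was clone 10F.9G2), and Rad + R788 + anti-PDL1, in which 10 Gy of radiation was added. These last tumors are called irradiated here. The series text places the first treatment on day 28 and the last on day 37, and neither the time between the last dose and RNA extraction nor the order of the tumors in sequencing was given in the sources used here. No group received a single agent, so the parts of R788 and of the antibody cannot be told apart, and all tumors came from 1 cell line. No label says whether the tumors of a group were handled in separate runs, and p-values measure the spread between these tumors only.

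Total counts ranged from 18276683 to 23397886 per library. Irradiated replicate 1 stood apart: across genes its log2 CPM (counts scaled to the size of the library) correlated with the other 8 libraries at r of 0.86 to 0.91, while those 8 correlated with each other at 0.94 to 0.98. Its mitochondrial genes took 1.97% of counts against 3.48% to 5.71% elsewhere. Results of the 9 genes that rest on it are therefore given with and without it. Results of the other gene lists in irradiated tumors are given with it only. Among the neuroblast markers, Th was at a count of 0 in all 9 libraries and Dbh did not exceed 1, while Hand2 (at least 6545 counts) and Mycn (at least 1265) were present in every tumor, so the catecholamine synthesis markers of the labelled cell type were at or near 0. The extraction text of the labels names bone marrow macrophages as the RNA source and the tissue label names whole tumor. Among the fibroblast genes, Col1a1 (13000 counts or more) and Col3a1 (9082 or more) were abundant. The others were lower, with highest counts of 5097 (Col1a2), 2962 (Pdgfra), 1759 (Dcn) and 622 (Lum). Macrophage markers were present in every library, and which label holds was not tested.

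Promoter sequences are shown for Fos and Junb, the members called in some fits of R788 + anti-PDL1 against vehicle below. Jun, the best known partner of Fos, is added to let the letters upstream of each start be compared. The sequences are the 250 bases before the RefSeq start (GRCm38.p6), 5′ to 3′ on the strand of the gene. Capitals mark matches, on either strand, to the motifs TGANTCA (the classical AP-1 site), TGACGTCA (the full cAMP response element), TGACGT (its core, contained in the full element), TATAAA and CCAAT.
Fos, chr12:85473640-85473889, plus strand: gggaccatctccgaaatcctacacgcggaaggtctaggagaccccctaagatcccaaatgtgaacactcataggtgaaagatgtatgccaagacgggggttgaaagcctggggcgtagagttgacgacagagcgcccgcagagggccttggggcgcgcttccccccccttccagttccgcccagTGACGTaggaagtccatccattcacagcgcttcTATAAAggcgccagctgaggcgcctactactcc
Jun, chr4:95052223-95052472, minus strand: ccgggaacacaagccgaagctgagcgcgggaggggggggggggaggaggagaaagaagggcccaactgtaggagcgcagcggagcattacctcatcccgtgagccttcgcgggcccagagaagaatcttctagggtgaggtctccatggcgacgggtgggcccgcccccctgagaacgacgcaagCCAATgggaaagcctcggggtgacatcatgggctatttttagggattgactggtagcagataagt
Junb, chr8:84978749-84978998, minus strand: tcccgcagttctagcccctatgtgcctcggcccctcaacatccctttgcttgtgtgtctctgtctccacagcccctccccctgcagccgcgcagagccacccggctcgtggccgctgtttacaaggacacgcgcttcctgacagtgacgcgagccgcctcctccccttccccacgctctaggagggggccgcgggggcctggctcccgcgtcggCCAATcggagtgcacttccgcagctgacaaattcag

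In the Fos window TGACGT lay at positions -66 to -61 and TATAAA at -33 to -28, counted back from the base before the start. Over 32851 mouse promoter windows of the same length, 6.47% held TGACGT and 12.4% held TATAAA. The Jun window held CCAAT at -65 to -61 and the Junb window at -36 to -32, a motif found in 33.8% of windows. Of the other windows read, that of Atf3 held the core on the opposite strand at -8 to -3, and those of Fosb, Fosl2 and Jund held none of these letters. None of the 7 windows held TGANTCA (6.75% of all windows), TGACGTCA (1.55%), the CArG box of serum response factor (1.47%) or GCGTGGGCG, the Egr1 motif (0.536%). A match is a description of letters only, and only these patterns within 250 bases were searched. Sites with other letters or farther upstream were not covered: the Jun window holds tgacatca, which differs from TGACGTCA by a single letter. The windows of Jund, Fosl2 and Atf3 lie 1210, 671 and 34706 bases from the gene start in the annotation used here (GENCODE M21), so those windows belong to other starts of these genes.

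Divided by the exon length of each gene, the vehicle tumors had most Jund transcript at 137 ± 24.0 CPM per kb (SD, n = 3), then Jun at 71.2 ± 9.35 and Junb at 42.8 ± 10.2. Egr1 followed at 20.0 ± 5.52, Fos at 15.2 ± 3.96 and Fosl2 at 13.8 ± 4.27, and the tumors of neighbours among these 3 overlapped. Fosl1 at 7.10 ± 4.25 overlapped with Fosl2 above it and Atf3 at 5.09 ± 0.336 below it, and Fosb was lowest at 2.51 ± 0.905 CPM per kb. Jun family transcripts were thus the most abundant in every group, and the order of the first 4 (Jund, Jun, Junb, Egr1) was the same in all 3 groups by mean.

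Whether the libraries kept strand was not stated, and reads of overlapping genes cannot be told apart. Fosl1 (chr19:5447547-5455946) shared 1163 exon bases with Ccdc85b on the opposite strand, which had 12.8 to 148 CPM against at most 21.5 CPM for Fosl1, and its values are uncertain for that reason. Junb (chr8:84974484-84978718) shared 173 exon bases with Prdx2 on the opposite strand, which had 196 to 304 CPM in vehicle and 205 to 278 CPM in R788 + anti-PDL1 tumors, but 1249 CPM in irradiated replicate 1 against 228 and 240 in the other irradiated tumors. Jun (chr4:95049034-95052222) and Jund (chr8:70698949-70700616), which each consist of a single exon, shared bases with antisense transcripts that did not exceed 3.98 CPM. Fos (chr12:85473890-85477273) shared exon bases with no other gene.

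Comparing R788 + anti-PDL1 with vehicle, every one of the 9 genes had a log2 fold change below 0. Fos and Junb had the largest deficits in relation to their error, followed by Egr1 and Fosl2. In edgeR's quasi-likelihood test across all genes, 0 of 9 passed a Benjamini-Hochberg adjusted p of 0.05, against 0.678% of all genes (DESeq2 called 2 of 9, Fos and Junb, both lower, against 2.05% of all genes). At an unadjusted p under 0.05, 5 of 9 were lower and 0 higher, against 5.69% of all genes lower and 5.96% higher.

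Fos, the founding member of the Fos family, had 25.3, 43.0 and 39.2 CPM in vehicle replicates 1 to 3 and 14.8, 15.1 and 13.9 CPM in R788 + anti-PDL1 replicates 1 to 3. The groups did not overlap, and the 3 treated tumors lay within 1.24 CPM of each other. The log2 fold change was -1.30 ± 0.29 (SE; adjusted p = 0.0932 in edgeR's quasi-likelihood test, 0.00240 in DESeq2). When irradiated replicate 1, which shares the estimate of the spread, was left out of the fit, it was -1.27 ± 0.21 with an adjusted p of 0.0138 in edgeR.

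Junb, a Jun protein that often opposes Jun in cell growth, had 71.8, 116 and 108 CPM in vehicle tumors and 48.5, 40.1 and 45.3 CPM after R788 + anti-PDL1. Again no treated tumor reached the lowest vehicle tumor. The log2 fold change was -1.14 ± 0.33 (adjusted p = 0.185 in edgeR, 0.0498 in DESeq2), and without irradiated replicate 1 in the fit it was -1.12 ± 0.18 with an adjusted p of 0.0127 in edgeR. Fos and Junb were the 2 members called in that fit, in which 2.78% of all genes were called lower, and also in the fit of the 6 compared libraries alone (1.73% called lower).

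Egr1, a zinc finger factor induced through serum response factor, had 61.9, 110 and 96.8 CPM in vehicle tumors and 29.3, 63.8 and 38.0 CPM after R788 + anti-PDL1. The ranges overlapped through vehicle replicate 1 and treated replicate 2, and the log2 fold change was -1.03 ± 0.31 (adjusted p = 0.214 in edgeR, 0.0658 in DESeq2). Fosl2, which encodes Fra-2, had 85.9, 161 and 153 CPM against 85.3, 75.2 and 76.5 CPM, a log2 fold change of -0.76 ± 0.28 (adjusted p = 0.320 in edgeR). The vehicle and treated Fosl2 tumors did not overlap, but vehicle replicate 1 lay only 0.588 CPM above the highest treated tumor.

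Jun, the best known partner of Fos, varied least over the 9 tumors, with 256, 196 and 230 CPM in vehicle tumors and 172, 167 and 173 CPM in treated ones. The groups did not overlap and the log2 fold change was -0.41 ± 0.17 (unadjusted p = 0.0359, adjusted p = 0.381 in edgeR). Jund had 272, 194 and 218 CPM against 133, 207 and 153 CPM, which overlapped, with a log2 fold change of -0.47 ± 0.50 (adjusted p = 0.789 in edgeR).

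Atf3, a stress-induced repressor that pairs with Jun proteins, had 11.5, 11.3 and 10.1 CPM in vehicle tumors and 9.52, 5.39 and 8.61 CPM after R788 + anti-PDL1, without overlap but with a log2 fold change of only -0.48 ± 0.42 (adjusted p = 0.735 in edgeR). Fosb, a Fos relative, had 9.44, 20.4 and 17.2 CPM against 11.1, 9.97 and 12.0 CPM, at -0.51 ± 0.40 on the log2 scale. Fosl1, which encodes Fra-1, scattered most, with 4.80, 21.5 and 17.0 CPM in vehicle tumors and 12.5, 1.53 and 8.40 CPM in treated ones, and its log2 fold change was -0.95 ± 0.71. Both Fosb and Fosl1 overlapped between the groups, and neither difference exceeded the spread between tumors.

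Counted together, 5 of the 9 genes (Fos, Fosl2, Jun, Junb and Atf3) were lower in all 3 treated tumors than in any vehicle tumor, against 16.5% of all genes, and 0 of the 9 were higher, against 13.6%. The median log2 fold change of the 9 was -0.76, against -0.02 over all genes tested. With 3 tumors in each group, the smallest two-sided p of an exact permutation test is 0.1, so no single gene could pass that test. Vehicle replicate 1 was the lowest vehicle tumor for Fos, Fosb, Fosl1, Fosl2, Junb and Egr1, and the highest for Jun, Jund and Atf3.

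**Figure D1:**
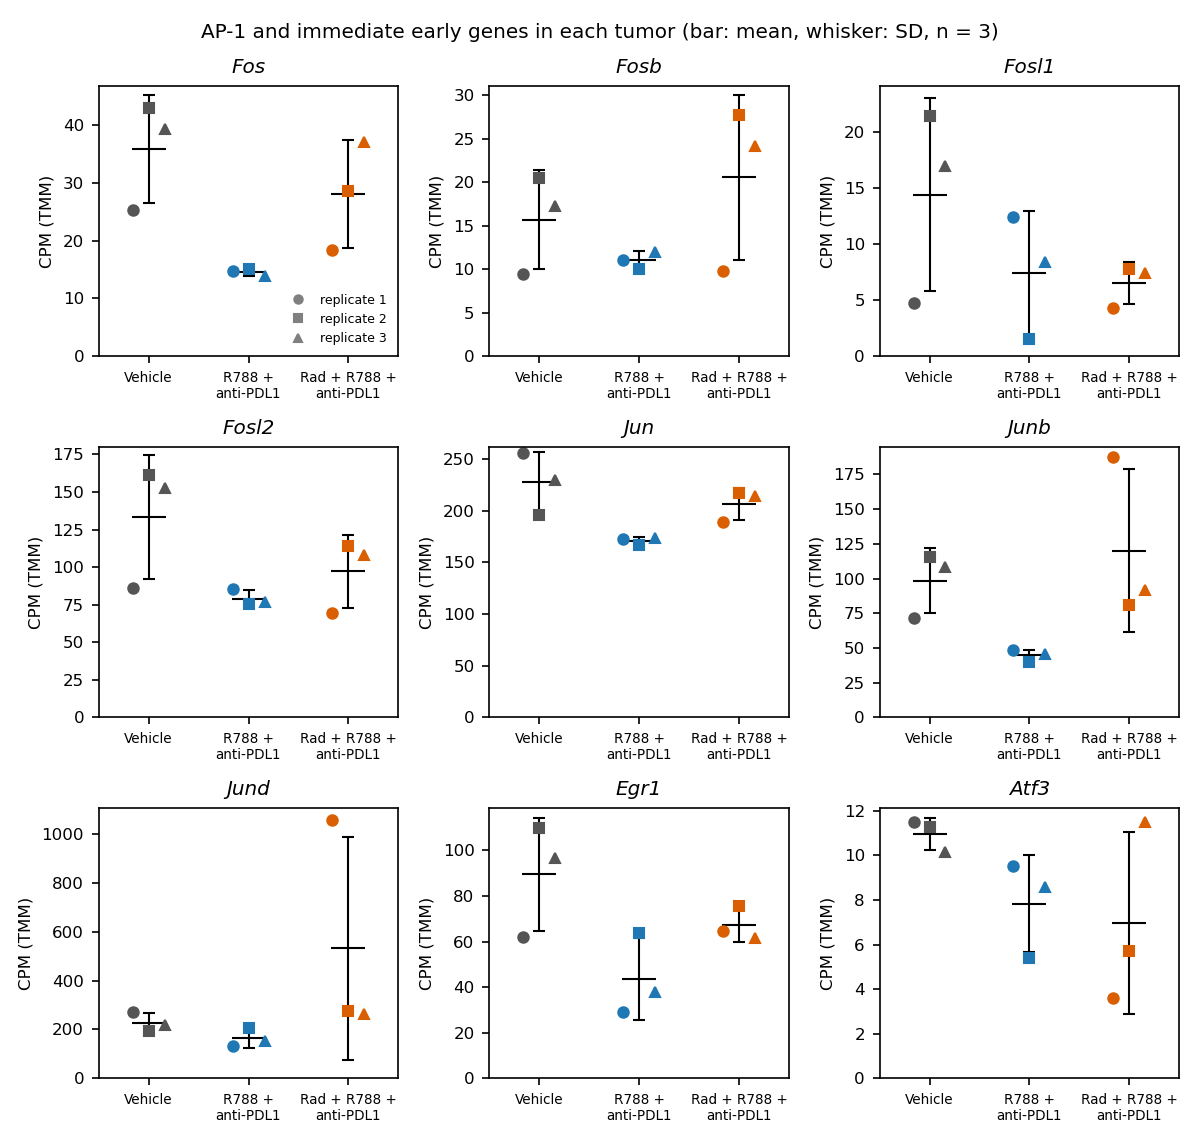
Level of each of the 9 genes in each tumor (vertical axes, TMM-scaled CPM from 0; symbols, replicate number; horizontal bar and whisker, mean and SD of 3 tumors). The 3 R788 + anti-PDL1 tumors sit at 13.9 to 15.1 CPM for Fos and 40.1 to 48.5 CPM for Junb, below every tumor of the other groups, and irradiated replicate 1 sits alone at 1058 CPM for Jund.

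Irradiated tumors were compared with R788 + anti-PDL1 tumors to ask what differed when radiation was added. This comparison shares its R788 + anti-PDL1 tumors with the one above, so a low group there appears as a difference in both. Of the 9 genes, 7 had a log2 fold change above 0, 0 passed an adjusted p of 0.05 in edgeR (0.00628% of all genes did), and 3 (Fos, Junb and Jund) were higher at an unadjusted p under 0.05, against 11.7% of all genes. DESeq2 called Junb and Jund (2.96% of all genes called higher). The tumors did not overlap for Fos, Jun, Junb and Jund, all higher in irradiated tumors, against 14.2% of all genes.

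Fos had 18.4, 28.6 and 37.1 CPM in irradiated replicates 1 to 3, all above the R788 + anti-PDL1 tumors, with a log2 fold change of 0.95 ± 0.29 (adjusted p = 0.222 in edgeR, 0.0511 in DESeq2). Without irradiated replicate 1 it was 1.18 ± 0.23 (adjusted p = 0.0838 in edgeR). Junb had 187, 80.9 and 91.7 CPM in the irradiated tumors, a log2 fold change of 1.43 ± 0.33 (adjusted p = 0.175 in edgeR, 0.00630 in DESeq2) that became 0.96 ± 0.19 (adjusted p = 0.0900 in edgeR) without replicate 1. Junb thus kept its direction when the tumor that was highest was removed.

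Jund had 1058, 275 and 263 CPM in the irradiated tumors, so replicate 1 was at 3.84 times the level of the next tumor. Its log2 fold change against R788 + anti-PDL1 was 1.70 ± 0.51 (adjusted p = 0.222 in edgeR, 0.0297 in DESeq2) with this tumor, and 0.72 ± 0.21 (adjusted p = 0.174 in edgeR) without it. Jun had 189, 217 and 214 CPM, at 0.28 ± 0.17 on the log2 scale. Both Jun and Jund were above the R788 + anti-PDL1 tumors in each irradiated tumor.

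Fosb had 9.81, 27.7 and 24.1 CPM in the irradiated tumors, and Fosl2 had 69.1, 114 and 108 CPM. In both, replicate 1 fell below every R788 + anti-PDL1 tumor while the other irradiated tumors lay above them. Egr1 had 64.7, 75.5 and 61.4 CPM, at 0.62 ± 0.31 on the log2 scale (adjusted p = 0.305 in edgeR), and overlapped with treated replicate 2. Fosl1, with 4.35, 7.81 and 7.44 CPM, and Atf3, with 3.61, 5.73 and 11.5 CPM, had log2 fold changes of -0.19 and -0.17, which turned to 0.05 and 0.15 without replicate 1. Without this tumor 6 of 9 genes (Fos, Fosb, Fosl2, Jun, Junb and Jund) did not overlap and were higher, against 20.7% of all genes.

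For most of the 9 genes irradiated tumors differed less from vehicle tumors than R788 + anti-PDL1 tumors did. The first comparison uses the same vehicle tumors. Jund, Fosl1 (log2 fold change -1.14 ± 0.72) and Atf3 (-0.65 ± 0.42) differed more than after R788 + anti-PDL1. None of the 9 genes passed an adjusted p of 0.05 in edgeR (0.0439% of all genes) or DESeq2 (3.85%), and 1 gene, Jund at a log2 fold change of 1.22 ± 0.50, had an unadjusted p under 0.05 (0.0368; adjusted p = 0.355), against 13.2% of all genes. For no gene did the tumors of these groups separate, where 20.5% of all genes did. The median log2 fold change of the 9 was -0.35, against 0.05 over all genes. Fos was at -0.35 ± 0.29, with a 95% interval of -1.0 to 0.30, and at -0.09 ± 0.23 without irradiated replicate 1. Junb turned from 0.28 ± 0.33 to -0.16 ± 0.20, and Jund fell to 0.27 ± 0.21, without that tumor. Fosb was then the gene that did not overlap, with both remaining irradiated tumors above all vehicle tumors, as for 17.2% of all genes (log2 fold change 0.75 ± 0.28, adjusted p = 0.245 in edgeR).

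**Figure D2:**
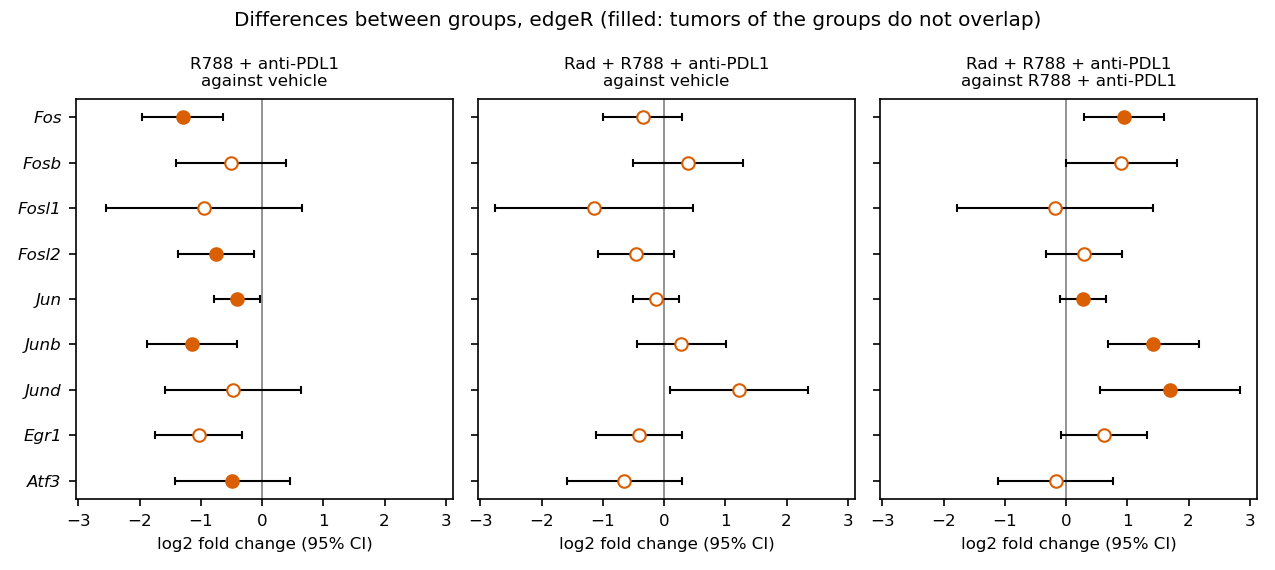
Log2 fold change of each gene in the 3 comparisons (horizontal axis; bars, 95% intervals of edgeR's fit; filled points, genes whose 3 and 3 tumors do not overlap). All 9 points lie below 0 for R788 + anti-PDL1 against vehicle, and Junb and Jund lie furthest above 0 for irradiated against R788 + anti-PDL1 tumors at 1.43 and 1.70.

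The values of irradiated replicate 1 varied with the base composition of the genes. Relative to the other irradiated tumors it was lower by a median of -0.54 on the log2 scale over the tenth of genes with least GC (at most 41.6%) and higher by 0.43 over the tenth with most GC (at least 58.4%). Jund, with a GC content of 67.1%, was 1.98 higher in this tumor than in the other irradiated tumors, and Junb, with 62.6%, was 1.12 higher. Fosl1, with 58.5%, was lower by -0.80, and the other 6 genes, at 51.9% to 57.3% GC, had differences of -1.39 (Fosb) to -0.07 (Egr1). The part of base composition in these values was not tested. Among R788 + anti-PDL1 tumors the medians of the same 2 sets of genes lay between -0.01 and 0.02. Among vehicle tumors, each taken against the other 2, they were -0.16 and 0.15 in replicate 1, 0.16 and -0.13 in replicate 2, and 0.02 and -0.01 in replicate 3.

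**Figure D3:**
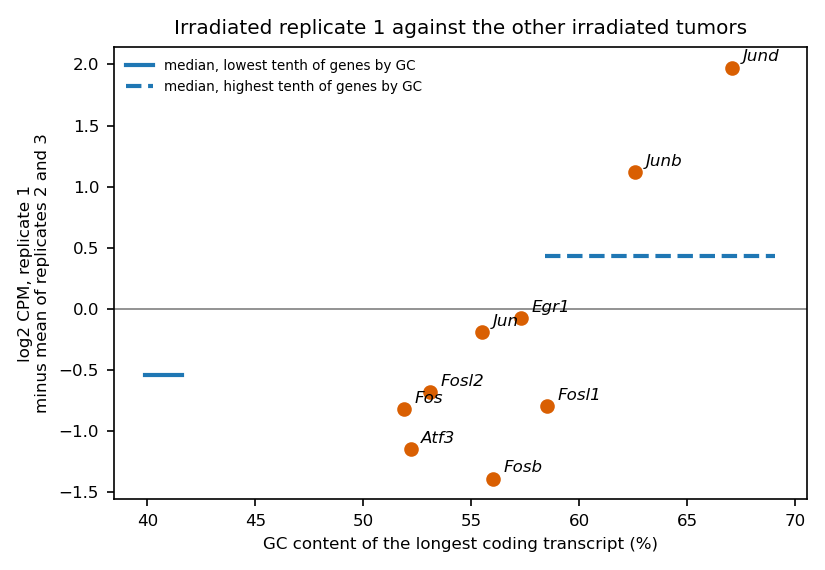
Difference in log2 CPM between irradiated replicate 1 and the mean of irradiated replicates 2 and 3 (vertical axis) against the GC content of each gene's longest coding transcript (horizontal axis, percent); the lines give the medians of the genes with least and most GC. Jund and Junb, the genes with the highest GC content, lie above 0 at 1.98 and 1.12, and the other 7 lie below 0.

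Fos was then set against each of the other 8 genes over the tumors on the log2 CPM scale, with exact permutation tests adjusted over the 8 relations. The permutations ignored the 3 groups, so their p-values also count the differences between groups. No test was run on r relative to the group means. Over 9 tumors Fos rose and fell with Fosl2 (Pearson r = 0.89, exact permutation p = 0.00214, adjusted p = 0.0171; Spearman rho = 0.83, p = 0.00827, adjusted p = 0.0661) and with Egr1 (r = 0.80, exact permutation p = 0.00623, adjusted p = 0.0249; rho = 0.77, p = 0.0214, adjusted p = 0.0856). Without the 2 tumors farthest from the median Fos level (R788 + anti-PDL1 replicates 1 and 3) r was 0.92 for Fosl2 and 0.67 for Egr1. Relative to the group means r was 0.91 for Fosl2 and 0.90 for Fosb, but 0.38 for Egr1. It was 0.61 for Atf3 and 0.48 for Fosl1, and below 0 for Junb (-0.28), Jund (-0.80) and Jun (-0.15).

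Over all 9 tumors r was 0.59 for Junb (exact permutation p = 0.0981, adjusted p = 0.157; rho = 0.70, adjusted p = 0.115) and 0.05 for Jund (adjusted p = 0.932). Without irradiated replicate 1, Fos and Junb followed each other over 8 tumors at r = 0.98 (exact permutation p = 0.000198, adjusted p = 0.00159; rho = 0.93, adjusted p = 0.0179), and at 0.90 relative to the group means, where Jun was at -0.83 and Jund at -0.52; this setting was chosen after the values were seen. Fosl2 stayed at r = 0.90 (adjusted p = 0.0138) and Jund was at 0.60 (exact permutation adjusted p = 0.158). Fosb was at r = 0.73 over 9 tumors (exact permutation adjusted p = 0.0883), Jun at 0.69 (0.0900), Fosl1 at 0.55 (0.166) and Atf3 at 0.47 (0.219). Among all 36 pairs of the 9 genes, 31 had r above 0.

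**Figure D4:**
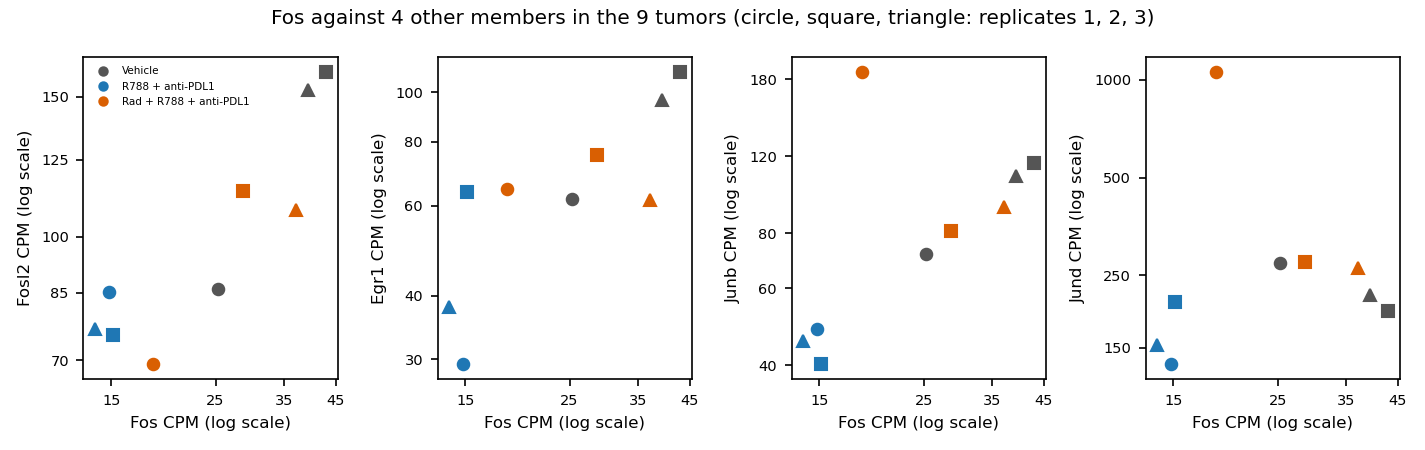
Fos (horizontal axes) against Fosl2, Egr1, Junb and Jund (vertical axes) in the 9 tumors, CPM on log scales; colors give the groups and symbols the replicates. Junb follows Fos in 8 tumors, with irradiated replicate 1 apart at 187 CPM, and Jund has the same tumor apart at 1058 CPM.

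The genes with the tumor pattern most like Fos, by Pearson r over the 9 tumors, included Trp53inp2 and Litaf (both 0.97), Ksr1 and Syap1 (both 0.95). Ksr1, a scaffold of the RAF, MEK and ERK kinases, had 62.7 to 130 CPM in vehicle tumors, 26.7 to 31.7 after R788 + anti-PDL1 and 45.8 to 73.1 in irradiated tumors. For Fosl1 the closest genes were Mid1 (0.96), Socs3 and Lhx4 (both 0.95), Stc2 and Slc6a8 (both 0.94). Socs3, a feedback inhibitor of cytokine receptors, had 103 to 244 CPM in vehicle tumors, 51.7 to 143 after R788 + anti-PDL1 and 97.2 to 110 in irradiated tumors. These genes were among the top of 15931 by r, and the values are a description.

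Other genes of the same program were followed through lists. Of 34 other immediate early genes, 32 were tested. In R788 + anti-PDL1 against vehicle 1 was called lower (Cyr61) and 1 higher (Egr3), where 0.678% of all genes were called in either direction. At an unadjusted p under 0.05, 14 were lower and 3 higher (5.69% of all genes lower and 5.96% higher), and the median log2 fold change was -0.60. Cyr61, a matricellular protein gene, had 35.5, 40.4 and 45.7 CPM in vehicle tumors and 16.4, 13.7 and 13.9 CPM after treatment, without overlap (log2 fold change -1.47 ± 0.20, adjusted p = 0.0375 in edgeR). Egr3, an Egr1 relative, went the other way, from 0.939, 1.08 and 1.32 CPM to 3.84, 7.38 and 5.90 CPM (2.36 ± 0.43, adjusted p = 0.0476 in edgeR). The call of Egr3 was lost in each of the 6 fits that left out 1 library of these groups (adjusted p of 0.0975 to 0.229 in edgeR), and that of Cyr61 in all but the fit without vehicle replicate 1 (0.0350 to 0.216). Without irradiated replicate 1 in the fit, 7 genes were called: Cyr61, Ier5, Ier5l, Trib1 and Bhlhe40 lower, and Egr3 and Dusp6 higher. Calls were also more frequent over all genes in that fit, with 2.78% called lower and 2.37% higher. In irradiated against R788 + anti-PDL1 tumors 12 of the 32 were higher and 0 lower at an unadjusted p under 0.05 (11.7% of all genes higher), none was called in edgeR, and DESeq2 called 7 higher (2.96% of all genes).

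Of the 11 other bZIP partners of AP-1, none was called in edgeR in R788 + anti-PDL1 against vehicle. DESeq2 called 1 lower (2.05% of all genes). At an unadjusted p under 0.05, 2 were lower (5.69% of all genes), and the median log2 fold change was 0.03. Maff, a small Maf protein gene, had 9.99, 17.2 and 14.7 CPM in vehicle tumors and 7.58, 6.04 and 6.89 CPM after treatment (-1.03 ± 0.28, adjusted p = 0.151 in edgeR), and Jdp2, a repressor that pairs with Jun proteins, was at -0.69 ± 0.26. Against these, the irradiated tumors had 13.4 ± 2.51 CPM of Maff (SD, n = 3) and 24.1 ± 2.94 CPM of Mafk, 2 small Maf genes whose values did not overlap with those after R788 + anti-PDL1. Mafg, the other small Maf gene, was lower in irradiated tumors without overlap, at 111 ± 13.7 CPM against 177 ± 28.1 CPM (SD, n = 3), and was not called (-0.67 ± 0.23, adjusted p = 0.223 in edgeR).

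Upstream of the 9 genes, 24 of 25 MAP kinases, their activators and serum response or CREB factors were tested. None was called in edgeR in R788 + anti-PDL1 against vehicle. DESeq2 called 1 lower (2.05% of all genes). At an unadjusted p under 0.05, 2 were lower (5.69% of all genes), and the median log2 fold change was -0.06. Map2k7, which activates the Jun kinases, had 394, 331 and 345 CPM in vehicle tumors and 206, 126 and 174 CPM after treatment, without overlap (-1.08 ± 0.22, adjusted p = 0.0747 in edgeR). Among 5 corepressors and degradation factors none was called in edgeR, and DESeq2 called 1 lower (2.05% of all genes). That gene, Nab2, a corepressor of Egr1, was at 45.8, 56.4 and 52.0 CPM in vehicle tumors and 24.7, 29.4 and 30.9 CPM after treatment (-0.86 ± 0.18, adjusted p = 0.0781 in edgeR). Both genes passed in the fit without irradiated replicate 1, with adjusted p of 0.0133 for Map2k7 and 0.0126 for Nab2 in edgeR. Map2k3 of the upstream list was also called lower in that fit (-0.57 ± 0.10, adjusted p = 0.0204 in edgeR), which called 2.78% of all genes lower.

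Downstream, 24 of 26 known AP-1 target genes were tested. None was called in edgeR in R788 + anti-PDL1 against vehicle. DESeq2 called 5 lower and 2 higher (2.05% of all genes lower and 2.78% higher). At an unadjusted p under 0.05, 8 were lower and 2 higher (5.69% of all genes lower and 5.96% higher). The median log2 fold change was -0.40. Il11, a cytokine of the IL-6 family, was at 0.939, 4.36 and 2.90 CPM in vehicle tumors and 0.397, 0 and 0.328 CPM after treatment, whereas Cd44 and Mmp9, a hyaluronan receptor and a gelatinase, had higher mean levels after treatment (log2 fold changes 1.25 ± 0.27 and 2.28 ± 0.55, adjusted p = 0.0844 and 0.110 in edgeR). Differences in both directions were thus present among the targets. Without irradiated replicate 1 in the fit the genes called included Ccl2 and F3, which were lower, and Mmp9, Cd44 and Vim, which were higher. That fit called 2.78% of all genes lower and 2.37% higher.

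**Figure D5:**
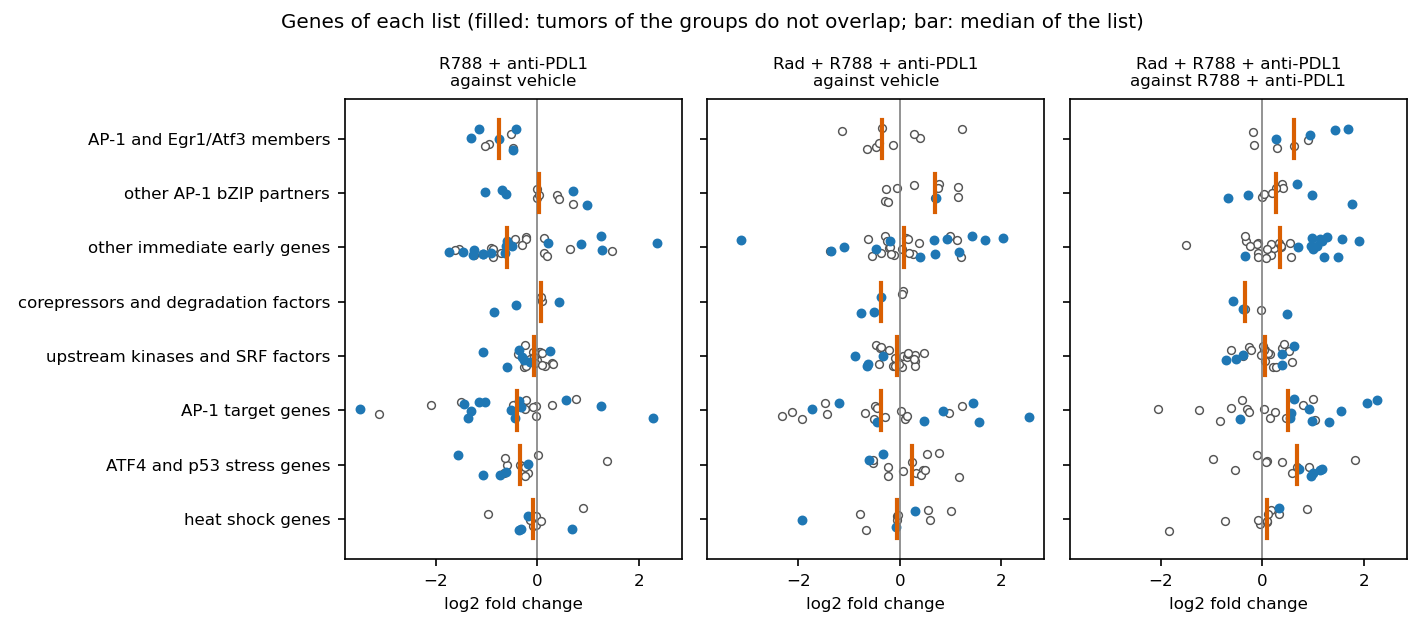
Log2 fold changes of the genes in each list in the 3 comparisons (horizontal axes; points, genes; filled points, genes whose tumors do not overlap; bars, list medians). The 9 AP-1 and immediate early members have a median of -0.76 for R788 + anti-PDL1 against vehicle and 0.62 for irradiated against R788 + anti-PDL1 tumors, and the upstream kinases have medians of -0.06 and 0.05.

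Summed levels of cell type markers also differed between the groups. The 5 erythroid genes summed to 201 to 625 CPM in vehicle tumors and 58.2 to 109 CPM after R788 + anti-PDL1 and 48.9 to 183 CPM in irradiated tumors, and the 5 endothelial genes to 33.1 to 43.5, 42.5 to 110 and 43.1 to 59.1 CPM. The 5 skeletal muscle genes, most of whose sum was Des, the desmin gene, summed to 78.1 to 130 CPM in vehicle tumors, 37.4 to 49.9 after R788 + anti-PDL1 and 62.3 to 137 in irradiated tumors, so the R788 + anti-PDL1 tumors were the lowest without overlap, as for Fos and Junb. Of these genes Des and Mylpf were lower after R788 + anti-PDL1 than in vehicle tumors without overlap. Ckm was not, at 2.03, 2.03 and 1.11 CPM after treatment against 1.33, 0.943 and 0.932 CPM. Acta1 and Myh4 did not exceed 11 and 2 counts. The 6 macrophage genes summed to 134 to 235 CPM in vehicle tumors, 282 to 287 after R788 + anti-PDL1 and 147 to 834 in irradiated tumors. The 6 neutrophil genes summed to 4.53 to 11.8, 3.13 to 4.70 and 3.70 to 17.7 CPM, with Ly6g at a count of 0 in every library, and the 6 T cell genes to 1.70 to 3.98, 4.13 to 23.8 and 1.84 to 31.7 CPM. After R788 + anti-PDL1 much of the T cell sum was Cd4, at 22.9, 2.03 and 12.2 CPM. Cd3e, a chain of the T cell receptor complex, was at 0.176, 0.191 and 0.041 CPM, against 0.166, 0.135 and 0.274 CPM in vehicle tumors. These Cd3e values rest on 4, 5 and 1 counts against 3, 3 and 5. Cd3d, another chain, was higher after treatment without overlap, at 2, 3 and 6 counts against 1, 0 and 0. Cd3g, Cd8a and Trac overlapped between these groups. The 9 AP-1 and immediate early genes are expressed in many of these cells, fewer cells of a type and less RNA per cell cannot be told apart in whole tumors, and the part of cell makeup in the differences was not tested.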

How the data were processed

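RNA-seq values came from a deposited table of Salmon estimated counts per gene symbol, not normalized by the authors. Per the methods and the submitters' processing notes, reads were aligned to mm10 with STAR 2.6.1d and quantified with Salmon 1.4.0; the values were whole numbers, so rounding was inferred. The labels and the methods differ on the sequencer and read layout. Groups came from the treatment label. Genes were filtered with filterByExpr (minimum count 10), scaled by TMM and tested with the robust quasi-likelihood F test of edgeR 4.0.16 in R 4.3.3, with all 9 libraries and no covariate; p-values were two-sided and Benjamini-Hochberg adjusted over 15931 genes, called under 0.05. CPM are TMM-scaled; correlations used log2 CPM with a prior count of 2. Alternatives were DESeq2 1.42.0 (used by the authors, here without shrinkage), RLE, other filters, the 6 compared libraries, a replicate block and leaving out libraries. Lengths, GC and positions came from GENCODE M21 (GRCm38; 98.9% of symbols matched), promoters from RefSeq (7 of 9 genes read). The edgeR script was tested on simulated data. The 9 genes and all lists were chosen with earlier results of these data known; list genes were named when called, or among the 3 highest or lowest without overlap. Genes named from fits without irradiated replicate 1 and the per-tumor examples were chosen after their values were seen. Values of some genes are not reported here.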

Additional observations from a re-analysis of the deposited data

How the results depend on the processing

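For R788 + anti-PDL1 against vehicle all 9 genes kept their direction in 13 of 13 alternatives. The number of them called went from 0 to 2 (Fos and Junb) under DESeq2, with the 6 compared libraries alone, and without irradiated replicate 1, and stayed at 0 when any library of the groups compared was left out; for irradiated against R788 + anti-PDL1 tumors DESeq2 called 2 (Junb and Jund). Leaving out 1 library turned 3 genes: Junb against vehicle ranged from -0.16 to 0.49, and against R788 + anti-PDL1 Fosl1 ranged from -0.67 to 0.40 (0.05 without irradiated replicate 1) and Atf3 from -0.74 to 0.15.

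Over all genes, calls for R788 + anti-PDL1 against vehicle, irradiated against vehicle and irradiated against R788 + anti-PDL1 were 108, 7 and 1 in the reported fit, 770, 613 and 797 with DESeq2, 199, 70 and 24 with no low-count filter, and 594, 1 and 0 with the 6 compared libraries alone. They ranged from 0 to 75, 1 to 57 and 0 to 21 when 1 library of the groups compared was left out (an arm of 2 tumors then shares the spread of the others), and the first was 856 without irradiated replicate 1. Without R788 + anti-PDL1 replicate 1 or 3, or vehicle replicate 2 or 3, the first was 0, with 1171 to 1513 genes at an unadjusted p under 0.05. The common dispersion was 0.146, and 0.0870 without irradiated replicate 1.

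The groups share replicate numbers, but no label says that a number pairs tumors, and deviations from group means correlated at -0.05 to 0.23 between same-numbered tumors, above 0.1 in 2 of 9 pairs. With a replicate block the counts over all genes were 0, 3 and 0 (1775, 1949 and 2789 at an unadjusted p under 0.05) and 0 of the 9 genes were called. The TMM and RLE scalings moved the median of all genes by less than 0.1. Floors of 3 counts lay at 0.115 to 0.221 CPM, below every value of the 9 genes, and cover counting error only.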

Other observations

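Genes of the integrated stress response and of p53, which lie beside Atf3 in its stress pathway, were followed as a list of 15. In R788 + anti-PDL1 against vehicle 1 was called in edgeR, where 0.678% of all genes were called. DESeq2 called 2 lower (2.05% of all genes). At an unadjusted p under 0.05, 3 were lower and 0 higher (5.69% of all genes lower and 5.96% higher). The gene called in edgeR was Ddit4, an inhibitor of mTORC1, at 148, 204 and 211 CPM in vehicle tumors and 74.7, 50.8 and 65.2 CPM after treatment (log2 fold change -1.56 ± 0.22, adjusted p = 0.0375 in edgeR's quasi-likelihood test). The adjusted p of Ddit4 reached 0.216 when 1 library was left out. Irradiated tumors had 137, 117 and 120 CPM of Ddit4. Cdkn1a, the p53 target that encodes p21, had 19.4, 31.2 and 27.5 CPM in vehicle tumors, 13.4, 13.0 and 10.8 after R788 + anti-PDL1 and 24.7, 24.9 and 32.0 CPM in irradiated tumors, so the tumors of the R788 + anti-PDL1 group were the lowest for it as for Fos and Junb. In irradiated against R788 + anti-PDL1 tumors 6 of 15 were higher and 0 lower at an unadjusted p under 0.05 (11.7% of all genes higher and 6.65% lower) and none was called in edgeR (DESeq2 called 3 higher, and 2.96% of all genes).

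Of 11 heat shock genes none was called in any comparison in edgeR or DESeq2, and in each comparison 1 was lower and 0 higher at an unadjusted p under 0.05. Over all genes 5.51% to 6.65% were lower and 5.96% to 11.7% higher. The median log2 fold change of the heat shock genes in R788 + anti-PDL1 against vehicle was -0.08.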
